A study of Homo sapiens with 12 samples.

Results

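The genes described here are 45 genes that carry proteins into and out of the endoplasmic reticulum (ER), out of 60708 genes in the count tables. They were chosen by symbol and role, with earlier results of these data known, as the subunits and machinery of 6 subgroups. These are the signal recognition particle (SRP) and its receptor (8 genes), the translocon (10 genes), the signal peptidase (5 genes), the COPII coat (11 genes), the COPI coat (7 genes), and the cargo and retrieval receptors (4 genes). All 45 symbols were found in both tables, and all 45 had counts in each of the 12 libraries.

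RNA was measured by sequencing in HCT116 cells, a human colorectal carcinoma line, after 24 h with oligomycin A (OA) or tunicamycin (TN). OA inhibits the mitochondrial ATP synthase, and TN blocks N-linked glycosylation in the ER. The 4 groups are OA, the DMSO libraries of OA, TN, and the DMSO libraries of TN, with 3 biological replicates in each, and DMSO is the solvent given to the controls. The sample labels give 5 µg/mL for both stressors, while the study's methods state a higher dose for OA. The study used OA as a mitochondrial stressor and TN as an ER stressor for comparison, so each was compared with its own DMSO libraries. All groups are the same cell line without a genetic change, and the values therefore describe one line at one time.

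A secreted or membrane protein is recognized by SRP while it is still being made, and SRP brings the ribosome to its receptor on the ER membrane. The chain passes through the SEC61 channel, and the signal peptidase removes its leader sequence. Folded cargo leaves the ER in vesicles coated by COPII, and COPI vesicles bring escaped ER proteins back from the Golgi, among them the chaperones that the KDEL receptors retrieve. The unfolded protein response, which senses misfolded protein in the ER, is known to induce genes of this traffic through transcription factors such as XBP1 and ATF6.

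Libraries held 9884124 to 24983573 counts, and the 45 genes took 0.542 to 0.935% of them. The lowest count of any of these genes in a library was 50, for SEC62. The levels below are CPM, counts divided by the library's TMM-scaled total in units of 1e+06 counts, and they are shares of the sequenced RNA, so that more of one transcript and less of all others per cell cannot be told apart. As a check on the treatment, the ER chaperone HSPA5 rose by 2.83 (OA) and 2.90 (TN) on the log2 scale, with adjusted p = 0.030 and 0.0024 by the quasi-likelihood test of edgeR. All 5 epithelial markers looked for (EPCAM, KRT8, KRT18, CDH1 and CLDN4) passed the filter on low counts, and 1 of 8 markers of leukocytes, macrophages, fibroblasts and endothelium did, namely COL1A1. The markers moved in part with the treatment: CDH1 and CLDN4 rose for both stressors, by 1.81 and 1.59 (OA) and by 1.69 and 1.70 (TN), and EPCAM, KRT8 and KRT18 did not pass. With the replicate number as a block, 3 of the 5 epithelial markers were called higher for TN, beside 11.8% of all genes. COL1A1 was at 1.84, 1.15 and 2.19 CPM in the OA DMSO libraries and at 5.16, 12.4 and 3.42 CPM with OA (adjusted p = 0.072), with overlap for TN, and the other 7 had at most 13 counts in any library. The part of other cells in the results below was not tested.

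Upon OA treatment, 1 of the 45 genes passed the test at an adjusted p under 0.05, the COPII cargo adaptor SEC24D, which rose. Over all 14681 genes tested for OA, 4.48% passed, and 2.76% passed as higher. The median log2 fold change of the 45 genes was 0.40, against −0.02 for all genes tested, and 33 of the 45 values were above 0, where the share over all genes was 48.8%. By library, as log2 CPM minus the mean log2 CPM of the DMSO group, the median was 0.305, 0.721 and 0.142 in OA replicates 1, 2 and 3. In 15 of the 45 genes every OA library lay above every DMSO library (16.3% of all genes did), and in 1 gene, SAR1A, every OA library lay below (15.5% of all genes). With DESeq2 in place of edgeR, 5 of the 45 genes were called for OA, all higher (SEC24D, COPA, COPG1, SEC11C and SSR4), beside 10.6% of all genes in either direction. With library totals in place of TMM the median of the 45 genes was 0.14 and that of all genes −0.225.

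Upon TN treatment, 6 of the 45 genes passed, and all 6 rose: SEC61A1 and SSR4 of the translocon, SPCS2 and SEC11C of the signal peptidase, SEC24D of COPII, and COPG1 of COPI. Over all 14432 genes tested for TN, 6.99% passed, and 3.65% passed as higher. The median log2 fold change of the 45 genes was 0.47, against −0.03 for all genes, with 34 of 45 values above 0 (48.1% of all genes). Every TN library lay above every DMSO library in 20 of the 45 genes (15.9% of all genes), and below in 1, again SAR1A (16.8% of all genes). With the replicate number as a block, 21 of the 45 genes were called higher, beside 11.8% of all genes. The block called 2 lower, SAR1A and SAR1B, beside 15.3%. These shares belong to each TN call with the block named below. The labels do not pair the libraries, and TN replicates 2 and 3 correlated about equally with DMSO replicates 2 and 3 (0.38 to 0.44). For OA the block called 12 genes higher and 2 lower, beside 11.7 and 15% of all genes. The 12 were SRPRA, SRPRB, SEC61A1, SSR2, SSR4, SEC11C, SEC23B, SEC24D, SEC31A, COPA, COPE and COPG1. Without the block, DESeq2 called 10 of the 45 for TN, all higher, beside 11.3% of all genes in either direction.

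The calls changed when single libraries were left out. SEC24D lost its OA call when any 1 of the 3 OA DMSO libraries or OA replicate 3 was left out, and the calls over all genes fell as well, to 0.0335, 0.02 and 0.0201% without DMSO replicates 1, 2 and 3 in turn and to 0.587% without OA replicate 3. Without OA replicate 1, 5 of the 45 genes were called, beside 7.57% of all genes, and without OA replicate 2 SEC24D alone, beside 5.53%. For TN, 0 of the 45 genes were called without DMSO replicate 1, 2 or 3 or without TN replicate 3, where 3.16, 1.23, 1.01 and 2.07% of all genes were. SEC11C alone was called without TN replicate 2 (2.01% of all genes), and 17 of the 45 genes without TN replicate 1 (15.8%). A fit with GC offsets, which takes out a trend with the base composition of transcripts, called 7 genes higher for OA, and 20 higher and 1 lower for TN, beside 8.52% of all genes for OA and 11.2 and 10.5% for TN.

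**Figure D1:**
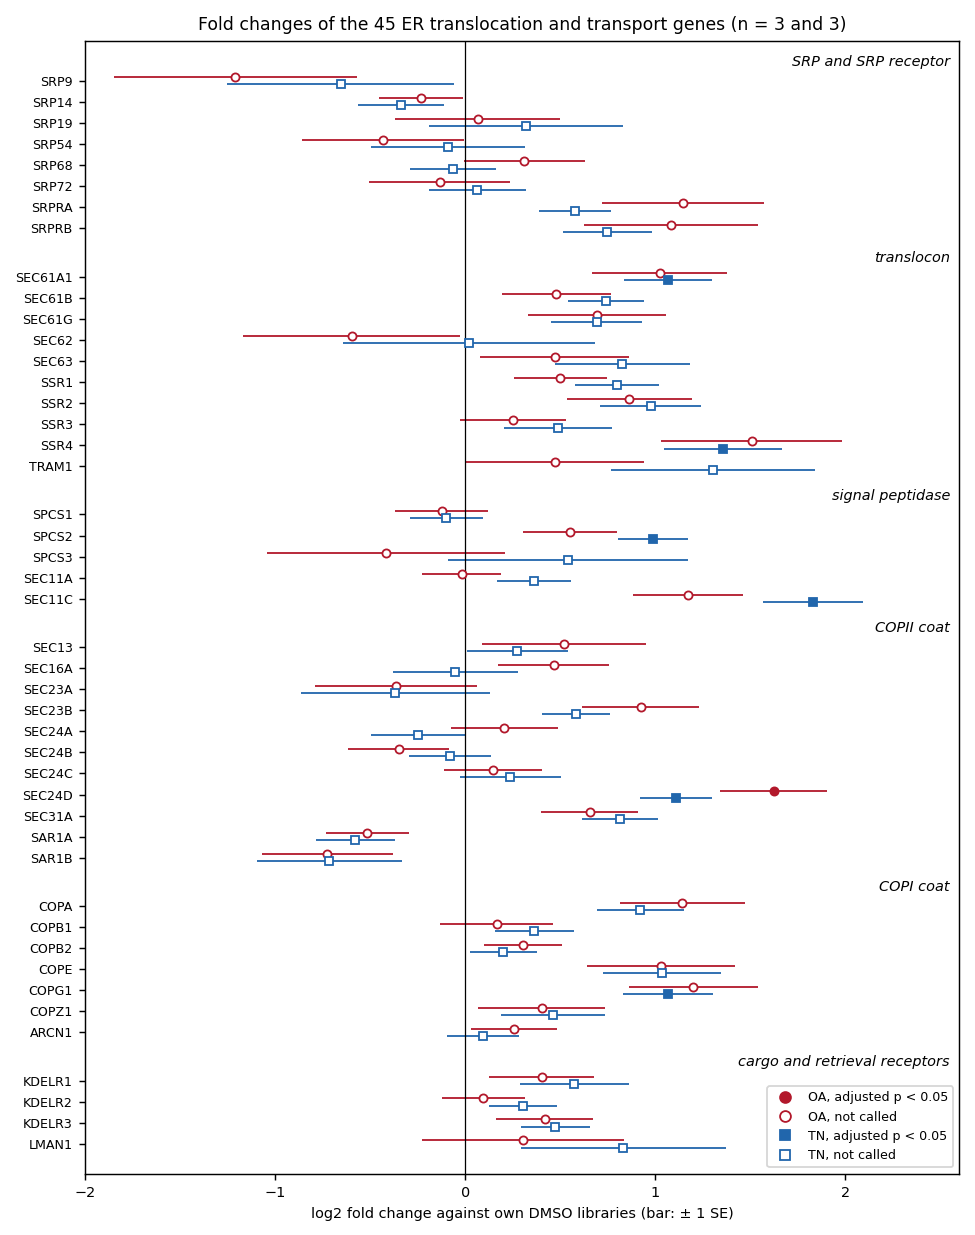
Log2 fold change of each of the 45 genes against the DMSO libraries of the same stressor, with bars of 1 standard error; circles are OA, squares are TN, and filled symbols passed an adjusted p of 0.05. SEC24D is the filled circle at 1.62, and 6 squares are filled, from 0.99 for SPCS2 to 1.83 for SEC11C.

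**Figure D2:**
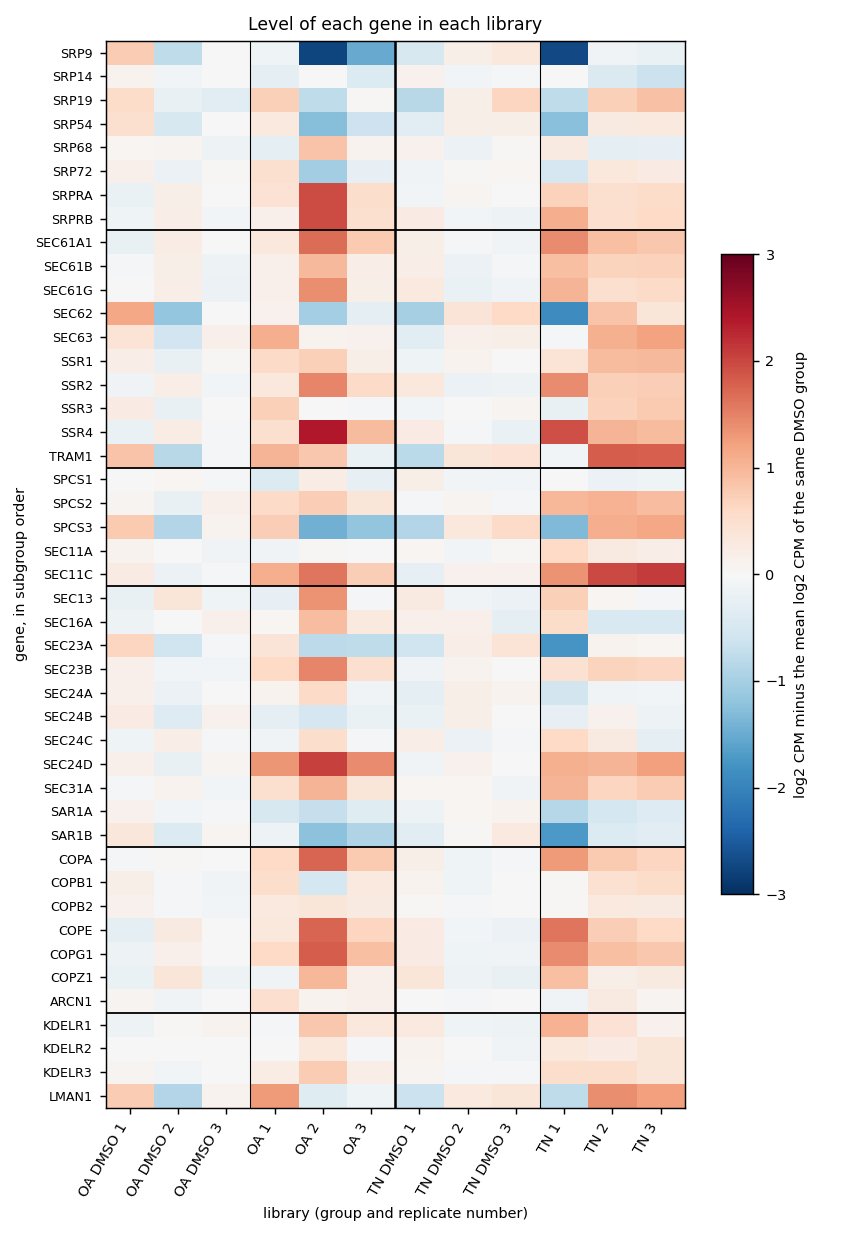
Each of the 45 genes (rows, lines between subgroups) in each of the 12 libraries (columns), as log2 CPM minus the mean log2 CPM of its own DMSO group. The lowest values are those of SRP9 in OA replicate 2 and TN replicate 1, the highest is that of SSR4 in OA replicate 2, and in each of the 6 treated libraries most rows of the translocon and the COPI coat are above 0.

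The subgroups did not move alike in their medians. For OA and TN in turn, the median log2 fold change was 0.49 and 0.81 for the translocon, 0.40 and 0.46 for the COPI coat, and 0.35 and 0.52 for the cargo and retrieval receptors. It was −0.02 and 0.54 for the signal peptidase and 0.21 and −0.05 for the COPII coat. Within the SRP pathway, the 6 particle subunits had medians of −0.185 and −0.08, while both receptor subunits were above 0, with medians of 1.115 and 0.66. These medians are descriptions without a test, and the difference between subgroups was not tested. Over the alternatives the translocon, COPI and receptor medians were above 0 for both stressors, and so was that of the signal peptidase for TN, but the others took both signs. With GC offsets the OA medians were 0.91 for the translocon, 0.815 for COPI, 0.285 for the signal peptidase and 0.11 for the SRP subunits, and with library totals they were 0.295, 0.13, −0.23 and −0.355, that of COPII being −0.04. As summed CPM, the translocon was at 1409.5 to 1542.2 in the OA DMSO libraries and 1911.7 to 3419.9 with OA, and at 1571.7 to 1601.9 and 2830.9 to 3033.1 for TN. The COPI coat, likewise summed, was at 1399.5 to 1547.6 and 1934.6 to 3247.7 for OA, and at 1410.7 to 1688.2 and 2133.8 to 2659.2 for TN. Neither sum overlapped between treated and control libraries, whereas the summed SRP subgroup overlapped for both stressors. For TN the sums of the signal peptidase (479.7 to 637.9 with DMSO, 650.9 to 989.3 with TN), of COPII (1051.6 to 1158.9 and 1201.7 to 1246.3) and of the receptors (307.6 to 347.3 and 380.6 to 582) were also above their controls, and for OA these 3 overlapped. The COPII sum for TN thus lay above the controls while the median of its genes was just below 0.

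The SRP subunits bind the leader sequence and pause the ribosome, with SRP54 as the subunit that contacts the leader. SRP54 was at 98.3, 50.9 and 70.0 CPM in the OA DMSO libraries and at 86.8, 29.2 and 46.1 CPM with OA. SRP9, which with SRP14 forms the part of the particle that slows elongation, was at 250.2, 86.5 and 149 CPM with DMSO and at 136, 22.0 and 51.5 CPM with OA. For TN, SRP9 was at 168, 266 and 293 CPM with DMSO and at 35.9, 220.3 and 205 CPM in the TN libraries. The groups overlapped in each case, the lowest SRP9 values being OA replicate 2 and TN replicate 1, and the SRP9 log2 fold changes of −1.21 ± 0.64 (SE) and −0.66 ± 0.60 did not pass (adjusted p = 0.29 and 0.56). With the replicate number as a block and GC offsets, SRP9 was called lower for TN (adjusted p = 0.045, 19% of all genes being called lower in that fit). The other 4 subunits, SRP14, SRP19, SRP68 and SRP72, had values between −0.34 and 0.32, and none passed for either stressor without that correction, while SRP72 was called higher for TN with it (adjusted p = 0.038, 18.3% of all genes being called higher).

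The SRP receptor is the docking partner on the ER membrane, made of SRPRA, which binds SRP, and SRPRB, which anchors it. SRPRA was at 26.8, 34.7 and 31.0 CPM in the OA DMSO libraries and at 41.6, 119 and 44.1 CPM with OA. In the TN experiment SRPRA was at 29.1, 32.8 and 30.9 CPM and at 49.8, 43.3 and 45.1 CPM. The treated libraries lay above the controls for both stressors, with log2 fold changes of 1.15 ± 0.43 and 0.58 ± 0.19 that did not pass (adjusted p = 0.16 and 0.11). SRPRB was at 159, 127 and 121 CPM with DMSO and at 287, 192 and 204 CPM with TN, without overlap, for a log2 fold change of 0.75 ± 0.24 (adjusted p = 0.10). Both receptor genes were called higher for TN in the fit with the replicate block (adjusted p = 0.029 for SRPRA and 0.0070 for SRPRB), beside 11.8% of all genes. Both were also called higher for OA with the block, beside 11.7% of all genes. For OA, SRPRB was at 134, 169 and 137 CPM with DMSO and at 162, 568 and 203 CPM, so OA replicate 1 fell within the control range and OA replicate 2 was far above it. The RNA of the particle itself, RN7SL1, took 6.02 to 8.11% of the counts in the DMSO libraries and 8.40 to 17.9% in the treated ones. On the CPM scale used for the other genes, OA replicate 1 (75752) lay below DMSO replicate 2 (80055), and the TN libraries lay above their controls. Its log2 fold changes of 1.17 and 0.89 did not pass (adjusted p = 0.16 and 0.11), though it was called higher for TN with the replicate block (adjusted p = 0.00096).

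SEC61A1 (chr3:128051641-128071705, hg38) encodes the pore of the channel, and SEC61B and SEC61G its small subunits. SEC61A1 was at 281, 386 and 333 CPM in the OA DMSO libraries and at 415, 1049 and 568 CPM with OA. In the TN experiment it was at 328, 277 and 267 CPM with DMSO and at 776, 539.6 and 511 CPM with TN. Every treated library was above its controls, and the log2 fold change was 1.07 ± 0.23 for TN, which passed (adjusted p = 0.037), and 1.02 ± 0.36 for OA, which did not (adjusted p = 0.13). SEC61B was at 116, 89.2 and 98.0 CPM with DMSO and at 187, 159 and 161 CPM with TN, and SEC61G at 150.1, 106 and 113 CPM and at 244, 169 and 182 CPM. Both were thus above every TN control, with log2 fold changes of 0.74 ± 0.20 and 0.69 ± 0.24 that did not pass (adjusted p = 0.069 and 0.13) and passed when the replicate block was added (0.0065 and 0.0080). SEC61B also passed with GC offsets alone (adjusted p = 0.0092).

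The 4 SSR genes encode the translocon-associated protein complex, which helps some chains to enter the channel. SSR4 (chrX:153793516-153798499, hg38) was at 94.5, 125 and 106 CPM in the OA DMSO libraries and at 151, 567 and 208 CPM with OA. With TN it was at 400.0, 215 and 203 CPM, against 125, 102 and 92.2 CPM with DMSO. The groups were separate for both stressors, at a log2 fold change of 1.36 ± 0.31 for TN (adjusted p = 0.043) and 1.51 ± 0.47 for OA (adjusted p = 0.11). SSR2 was at 246, 176 and 179 CPM with DMSO and at 525, 325 and 332 CPM with TN, and SSR1 at 109, 127 and 119 CPM and at 156, 228 and 233 CPM. For these genes the log2 fold changes were 0.97 ± 0.27 and 0.80 ± 0.22, which did not pass (adjusted p = 0.072 and 0.075), though both were called when the replicate block (0.0019 and 0.0075) or GC offsets were added. SSR2 was also called higher for OA with the block. SSR3 overlapped with its controls for both stressors, with log2 fold changes of 0.25 and 0.49, and was called higher for TN with GC offsets (adjusted p = 0.034), with these and the block (0.00090), and without TN replicate 1 (0.011).

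SEC62 and SEC63 serve chains that enter after synthesis, and TRAM1 lies beside the channel and contacts some leader sequences. TRAM1 was at 105, 234 and 248 CPM in the TN DMSO libraries and at 172, 642 and 638 CPM with TN. TN replicate 1 lay within the control range and replicates 2 and 3 far above it, and TRAM1 had a log2 fold change of 1.30 ± 0.54 (adjusted p = 0.19). With the replicate block, in which like-numbered libraries are compared, TRAM1 was called higher (adjusted p = 0.0024). SEC63 was at 11.6, 16.2 and 16.3 CPM and at 14.0, 30.7 and 33.5 CPM with TN, with a similar change of call, from an adjusted p of 0.21 to 0.028. SEC62 had log2 fold changes of −0.60 ± 0.57 for OA and 0.02 ± 0.66 for TN, the values with the widest errors of the translocon.

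**Figure D3:**
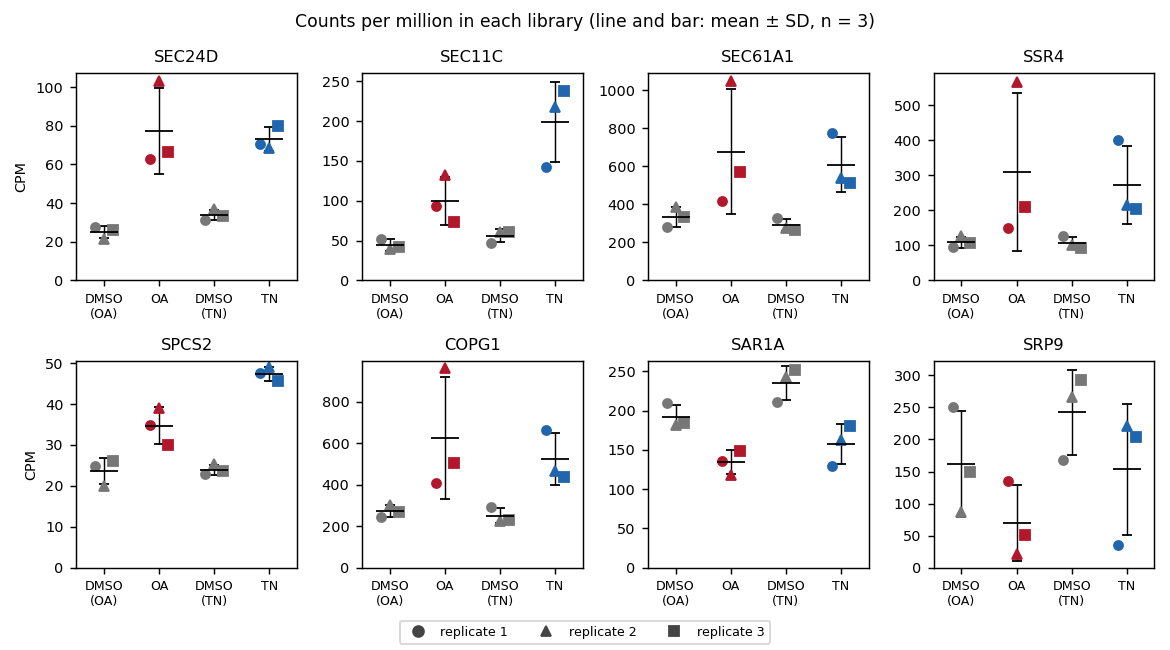
CPM of 8 of the genes in each library, on axes that start at 0; the shape of a point is its replicate number, and the line and bar are the mean and SD of 3 libraries. The 6 genes called for TN have all 3 TN points above the DMSO points, SAR1A has them below, and SRP9 overlaps.

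The signal peptidase has a catalytic subunit, SEC11A or its relative SEC11C, and the partners SPCS1, SPCS2 and SPCS3. SEC11C (chr18:59139866-59158832, hg38) was at 52.3, 38.8 and 42.0 CPM in the OA DMSO libraries and at 93.5, 133 and 72.9 CPM with OA. In the TN experiment it was at 46.6, 61.2 and 60.5 CPM with DMSO and at 142, 218 and 237 CPM with TN. SEC11C rose by 1.83 ± 0.26 on the log2 scale upon TN, the largest of the 45 values for TN (adjusted p = 0.0097), and its OA value of 1.17 ± 0.29 did not pass (adjusted p = 0.062). SEC11A was at 195, 176 and 193 CPM with DMSO and at 283, 226 and 217 CPM with TN, above every control. Its log2 fold change of 0.36 ± 0.19 did not pass (adjusted p = 0.30). SEC11A was called for TN with the replicate block and GC offsets together, beside 37.2% of all genes. For OA it was at 196, 181 and 167.5 CPM and at 167.04, 187 and 183 CPM, so that OA replicate 1 was just below the lowest control and the others within the range, at a log2 fold change of −0.02 ± 0.21.

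SPCS2 (chr11:74949261-74979033, hg38), an accessory subunit of the peptidase, was at 23.0, 25.3 and 23.5 CPM with DMSO and at 47.5, 49.1 and 45.7 CPM with TN, without overlap. It rose by 0.99 ± 0.19 on the log2 scale (adjusted p = 0.024). In the OA experiment SPCS2 was at 24.9, 19.995 and 26.1 CPM and at 34.8, 39.1 and 30.1 CPM, above the controls at a log2 fold change of 0.55 ± 0.25 that did not pass (adjusted p = 0.23). SPCS3 was at 95.9, 219 and 262 CPM with DMSO and at 70.8, 374 and 393 CPM with TN, so its TN libraries fell on both sides of the controls. It was called for TN with the replicate block and GC offsets together, beside 37.2% of all genes. SPCS1 had values of −0.13 and −0.10 for OA and TN, neither of which passed. Of its exonic bases, 56.6% overlap exons of NEK4 or GLT8D1 on the opposite strand, and the strand setting of the counting is not given in the sources used here. The same holds for SEC24C (42.8% of its exonic bases) and COPB2 (34.1%, with MRPS22), so their values below may depend on that setting.

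COPII is built from the small GTPase SAR1, the inner coat of SEC23 and SEC24, and the outer coat of SEC13 and SEC31, on ER exit sites marked by SEC16A. SEC24D (chr4:118722823-118838683, hg38) was at 27.6, 21.6 and 26.3 CPM in the OA DMSO libraries and at 62.8, 103 and 66.5 CPM with OA. With TN it was at 70.8, 68.5 and 80.0 CPM, against 31.5, 36.8 and 33.5 CPM with DMSO. SEC24D rose for both stressors, by 1.62 ± 0.28 for OA (adjusted p = 0.027) and by 1.11 ± 0.19 for TN (adjusted p = 0.017), and was the only one of the 45 genes called in both by this test. DESeq2 called SEC24D, COPA, COPG1, SEC11C and SSR4 in both, and edgeR with GC offsets called these and LMAN1 and SEC63. Of all genes, DESeq2 called 10.6% (OA) and 11.3% (TN), and the fit with GC offsets 16.1 and 21.8%. The share of all genes called in both was not counted, and their OA and TN log2 fold changes correlated at r = 0.804. SEC23B was at 217, 184 and 185 CPM and at 296, 541 and 271 CPM for OA, and at 197, 229 and 217 CPM and at 295, 337 and 328 CPM for TN. SEC31A was at 62.6, 62.7 and 55.6 CPM with DMSO and at 123, 94.0 and 101 CPM with TN. Neither overlapped with its controls for either stressor, and neither passed: SEC23B had an adjusted p of 0.12 (OA) and 0.098 (TN), and SEC31A of 0.17 (OA) and 0.053 (TN). With the replicate block both were called higher for TN (adjusted p = 0.013 and 0.0070), and also for OA.

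The SAR1 genes lay on the other side of 0. SAR1A, the GTPase that starts the coat, was at 209, 181 and 185 CPM in the OA DMSO libraries and at 136, 118 and 148 CPM with OA. For TN it was at 211, 243 and 251 CPM with DMSO and at 129, 163 and 179.97 CPM, so that all 6 treated libraries were below their controls. The SAR1A log2 fold changes of −0.52 ± 0.22 and −0.58 ± 0.21 did not pass (adjusted p = 0.20 and 0.14), and it was called lower for TN with the replicate block (adjusted p = 0.016). SAR1B was at 51.1, 66.7 and 79.5 CPM with DMSO and at 19.5, 49.1 and 51.3 CPM with TN, with 1 TN library touching the control range, and was also called lower with the block (adjusted p = 0.022, against 0.30 without). For OA, SAR1B was at 64.0, 38.0 and 53.7 CPM and at 45.3, 21.8 and 27.0 CPM. SEC13, SEC16A, SEC23A, SEC24A, SEC24B and SEC24C overlapped with their controls for both stressors, at log2 fold changes between −0.37 and 0.52.

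COPI is a coat of 7 kinds of subunit that is recruited whole to Golgi membranes. COPG1 (chr3:129249606-129277773, hg38), a subunit of its adaptor part, was at 245, 302 and 271 CPM in the OA DMSO libraries and at 409, 961 and 507 CPM with OA. In the TN experiment COPG1 was at 293, 227 and 232 CPM and at 665, 469 and 438 CPM. It rose by 1.06 ± 0.24 on the log2 scale for TN (adjusted p = 0.040), and for OA its value of 1.20 ± 0.34 did not pass (adjusted p = 0.083). COPA, which binds the retrieval signal of ER membrane proteins, was at 251, 263 and 258 CPM with DMSO and at 387, 869 and 446 CPM with OA, and at 295, 239.7 and 251 CPM and at 629.97, 449 and 409 CPM for TN. COPE, which supports COPA in the outer part of the coat, was at 91.7, 134 and 111 CPM and at 138, 375 and 173 CPM for OA, and at 117, 92.9 and 86.7 CPM and at 297, 162 and 149 CPM for TN. Both were above every control for both stressors, with log2 fold changes of 1.14 and 1.03 for OA (adjusted p = 0.087 and 0.16) and 0.92 and 1.04 for TN (adjusted p = 0.056 and 0.089). They were called for TN with the replicate block (adjusted p = 0.0028 and 0.0044), and also for OA.

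All 7 COPI genes had values above 0 for both stressors, but not under every alternative: ARCN1 was at −0.04 for TN with library totals in place of TMM, and COPB1 and COPZ1 (OA) and ARCN1 (TN) went just below 0 when 1 treated library was left out. COPA, COPE and COPG1 lay between 0.92 and 1.20, and COPB1, COPB2, COPZ1 and ARCN1 between 0.09 and 0.46. With the replicate block COPZ1 was also called for TN, beside 27.1% of all genes. With the block and GC offsets together COPB1 and COPB2 were called for TN as well, beside 37.2% of all genes. COPB2 was at 360, 345 and 352 CPM with DMSO and at 360.5, 430.1 and 422 CPM with TN, just outside the controls at a log2 fold change of 0.20 ± 0.18. ARCN1 was at 105, 101 and 105 CPM with DMSO and at 97.2, 126 and 109 CPM with TN, which overlapped. The log2 fold changes of subunits of one coat thus differed in size in the same libraries, and the difference between them was not tested.

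The KDEL receptors KDELR1, KDELR2 and KDELR3 return escaped chaperones, and LMAN1 is a lectin that loads glycoproteins into COPII vesicles. KDELR3 was at 39.5, 35.1 and 37.5 CPM in the OA DMSO libraries and at 43.2, 63.8 and 42.7 CPM with OA. For TN, KDELR3 was at 45.9, 42.4 and 42.1 CPM and at 62.7, 63.0 and 55.5 CPM. The treated libraries were above the controls for both stressors, at log2 fold changes of 0.42 ± 0.26 and 0.47 ± 0.18 that did not pass (adjusted p = 0.36 and 0.17), and KDELR3 was called for TN with the replicate block (adjusted p = 0.045). KDELR1, at 64.1, 47.8 and 47.3 CPM with DMSO and 109, 71.1 and 57.4 CPM with TN, overlapped and changed its call in the same way (adjusted p = 0.27, and 0.038 with the block). KDELR2 was at 121, 110.5 and 104 CPM and at 138, 132 and 143 CPM, above its TN controls at a log2 fold change of 0.30 ± 0.18 (adjusted p = 0.36). It was called for TN with the block and GC offsets together, beside 37.2% of all genes. LMAN1 was at 76.8, 146 and 154 CPM with DMSO and at 71.0, 316 and 282 CPM with TN, with TN replicate 1 below every control and the other libraries above, and had an adjusted p of 0.40.

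Several of the subunits have a related gene of like function, and the ratio of both genes within a library does not depend on how libraries were scaled. The log2 ratio of SEC24D to SEC24A was 0.55, 0.52 and 0.61 in the OA DMSO libraries and 1.79, 2.04 and 2.09 with OA. In the TN experiment it was 0.98, 0.75 and 0.67 with DMSO and 2.43, 1.93 and 2.13 with TN. SEC24D thus went up against SEC24A by 1.41 and 1.36, against SEC24B by 1.93 and 1.19, and against SEC24C by 1.47 and 0.90, without overlap in any of these comparisons. The ratio of SEC11C to SEC11A went up by 1.16 (OA) and 1.45 (TN), likewise without overlap. The exact permutation test over samples gave p = 0.1 for each of these, two-sided, which is the smallest value that 3 against 3 libraries allow, so no ratio could reach 0.05. SEC23B against SEC23A was higher by 1.24 (p = 0.2 by the exact test, overlapping) and 1.11 (p = 0.1). For TN this ratio was 1.04, 0.45 and 0.16 with DMSO and 2.79, 1.09 and 1.10 in TN replicates 1, 2 and 3. The genes of a pair can differ in GC content (46.2% for SEC23B and 37.3% for SEC23A). Scaling of libraries does not remove a trend with GC content, and its part in the ratios was not tested. SAR1A against SAR1B overlapped for both stressors, at differences of 0.25 and 0.23 (exact p = 0.5 and 0.7).

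**Figure D4:**
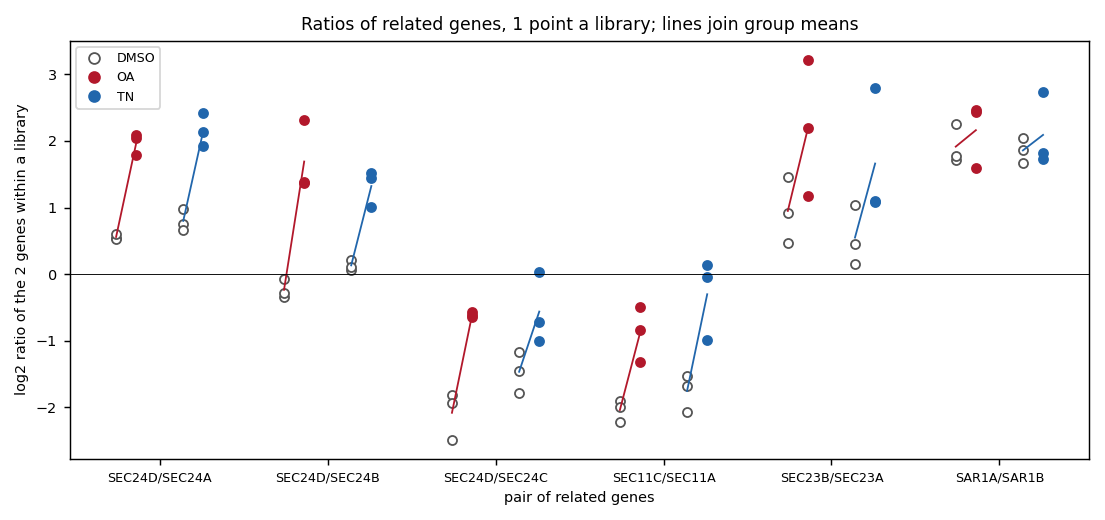
Log2 ratio of 2 related genes within each library (1 point a library, open for DMSO, red for OA, blue for TN), with lines between group means. The 3 ratios of SEC24D and the ratio of SEC11C to SEC11A are separate from their controls for both stressors, and the ratio of SAR1A to SAR1B is not.

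Levels can be set side by side between genes only per length of transcript. In CPM per kb of exon, averaged over the OA DMSO libraries, SEC61B (79.6), SRP14 (74.3), SRP9 (72.9), SSR3 (70.0) and SEC61G (68.3) were the highest, and SRP19 (0.86), SEC63 (1.27) and SEC62 (1.57) the lowest. Of the SEC24 genes, SEC24C was at 19.9, SEC24B at 5.74, SEC24D at 2.54 and SEC24A at 2.34 CPM per kb, so that SEC24D was among the lower ones in the controls. The exon lengths are those of all annotated models of a gene together, among them models that keep introns, which lowers the values of genes with many models.

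The OA and TN changes were set beside each other, and none of the 45 genes was shown to differ. In the contrast of the OA change minus the TN change over all 12 libraries, 0 of 15429 genes passed in edgeR and 0 of 31212 in DESeq2, 2.26% of all genes had an unadjusted p under 0.05, and 0 of the 45 genes did. Of the 45 genes, 38 had the same sign for both stressors (81.1% of all genes), 30 above 0 and 8 below. The libraries were separate and above in both experiments for 14 genes (10% of all genes). SEC11C had the lowest unadjusted p of the contrast, with an OA change smaller than the TN change by 0.76 ± 0.38 (SE) on the log2 scale (unadjusted p = 0.069, adjusted p near 1). The 5 genes called by edgeR for TN and not for OA, SEC61A1, SSR4, SPCS2, SEC11C and COPG1, had OA values from 0.55 to 1.51. Of these, SSR4, SEC11C and COPG1 were called for OA with DESeq2, with GC offsets and in 1 fit of all 12 libraries. The median SE of the 45 genes was 0.32 for OA and 0.24 for TN, and the SE was the smaller one for TN in 33 of the 45.

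The replicates of a group differed by the base composition of the genes. In OA replicate 2 and TN replicate 1, the deviation of the 45 genes from their group mean went up with the GC content of the transcript (r = 0.67 and 0.75 across the 45 genes), and in OA replicate 1, TN replicate 2 and TN replicate 3 it went down (r = −0.73, −0.69 and −0.77). The DMSO libraries of TN had the sign of the like-numbered TN library (r = 0.62, −0.51 and −0.63 for replicates 1, 2 and 3), so this trend runs with the replicate numbers that the block uses. The same was seen for OA in replicates 1 and 2 (r = −0.72 and 0.69 in the DMSO libraries), while replicate 3 had r = −0.07 with DMSO and 0.02 with OA. These correlations are across genes of the same library and carry no p. OA replicate 2 held the highest value of its 6 libraries for 27 of the 45 genes and the lowest for 10. For the 15 genes with GC under 40%, among them SRP9, SEC62, SPCS3, TRAM1 and LMAN1, the median SE was 0.39 (OA) and 0.38 (TN), against 0.29 and 0.23 for the other 30. With GC offsets the median log2 fold change of these 15 genes was 0.68 (OA) and 0.51 (TN) where it had been 0.21 and 0.20, while that of the other 30 was 0.43 and 0.55 where it had been 0.47 and 0.52. The part of base composition in the differences between subgroups was not tested.

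**Figure D5:**
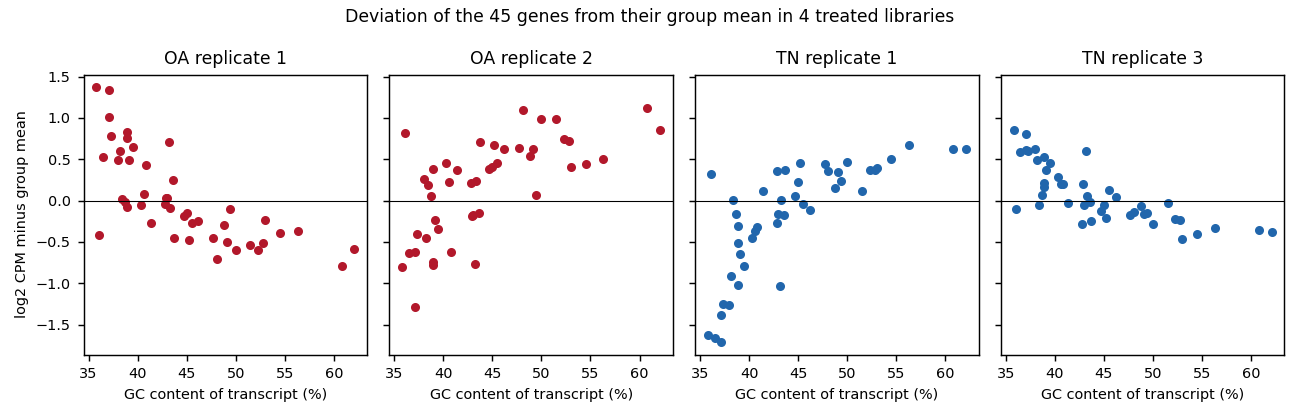
Deviation of each of the 45 genes from its group mean (log2 CPM) by the GC percentage of its longest transcript, in 4 treated libraries. The points go down with GC in OA replicate 1 and TN replicate 3 and up in OA replicate 2 and TN replicate 1.

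The promoters of the 45 genes were searched for letters that factors of the unfolded protein response are known to bind. RefSeq windows from 250 bases before to 50 after a start (GRCh38.p14) matched 40 of the 45 genes in 54 windows, since 10 genes have more than 1 start, and SRPRA, TRAM1, SPCS1, SEC24D and KDELR2 were not matched. The core of the unfolded protein response element, TGACGTGG on either strand, was in 11 of the 40 genes and 12 of the 54 windows (22.2%), against 0.729% of 35116 windows of all genes and 0.821% of 15345 windows of genes tested in either fit. The stretches around it are shown because its share of these windows differs from that of all windows, each as 30 bases of the gene's strand with the core or its reverse complement in capitals.
SSR4, chrX:153794528-153794557, plus strand: tcagggaggggCCACGTCAgtgctgccaga
SSR3, chr3:156554148-156554177, minus strand: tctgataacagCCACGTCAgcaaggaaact
SEC62, chr3:169966779-169966808, plus strand: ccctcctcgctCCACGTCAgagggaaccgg
SRP19, chr5:112861164-112861193, plus strand: aagtcttcatgCCACGTCAgagactagaga
SEC16A, chr9:136484707-136484736, minus strand: tggccctggtgCCACGTCAgccggactgaa
SEC23A, chr14:39103221-39103250, minus strand: tcccctcctctTGACGTGGcagaggcggcg
SEC24A, chr5:134648595-134648624, plus strand: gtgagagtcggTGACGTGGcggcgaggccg
COPA, chr1:160343227-160343256, minus strand: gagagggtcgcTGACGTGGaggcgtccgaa
COPB1, chr11:14499841-14499870, minus strand: cccacccccttCCACGTCAgccaaggactc
COPB2, chr3:139389825-139389854, minus strand: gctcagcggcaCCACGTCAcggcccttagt
COPB2, chr3:139389632-139389661, minus strand: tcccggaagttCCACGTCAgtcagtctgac
KDELR3, chr22:38468039-38468068, plus strand: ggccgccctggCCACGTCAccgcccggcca

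In 8 of these genes (SSR4, SSR3, SEC62, SRP19, SEC24A, COPB1, COPB2 and KDELR3) a core lies within the 250 bases before a start, at 16.7% of the 54 windows against 0.612% of all windows. In COPA and SEC16A it lies in the first bases of the transcript, in SEC23A across the start, and COPB2 has it both before and after a start. The core faces the reverse way in SSR4, SSR3, SEC62, SRP19, SEC16A, COPB1, COPB2 and KDELR3, and forward in SEC23A, SEC24A and COPA. The medians were not higher in the genes that hold the core, a description without a test. The 11 genes with it had a median log2 fold change of 0.25 for OA and 0.32 for TN, with 1 of them called for TN (SSR4), and the 29 matched genes without it had medians of 0.40 and 0.57, with 4 called for TN. The longer ER stress elements, ERSE and ERSE-II, were in 0 of the 54 windows (0.0769 and 0.0541% of all windows), and so was TTGCATCA, the core of the amino acid response element (0.866% of all windows). A match gives only the letters of these windows, and binding was not measured.

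Other genes of the same traffic were taken from 5 lists made by function, of which 94 of 99 genes were tested. For OA, 4 of these passed, all higher (4.48% of all genes passed in either direction), and for TN 8 passed, all higher (6.99%). The transcription factors of the secretory pathway gave 4 of 6 tested genes in both experiments: XBP1, ATF6, ATF4 and CREB3L2. XBP1 was at 99.0, 104 and 101 CPM in the OA DMSO libraries and at 201, 366 and 213 CPM with OA, and rose by 1.36 ± 0.28 (adjusted p = 0.040). For TN, XBP1 was at 117, 116 and 115 CPM and at 333, 228 and 253 CPM, and rose by 1.23 ± 0.21 (adjusted p = 0.017). CREB3L2, a relative of ATF6, rose by 1.47 ± 0.25 for OA and 1.37 ± 0.20 for TN. When 1 of the OA or DMSO libraries was dropped, each of these 4 genes passed for OA in 2 cases of 6.

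Among 29 tested partners of COPII export, 3 passed for TN and 0 for OA. These were the cargo receptors TMED9 and TMED10 of the p24 family and MCFD2, which works together with LMAN1. TMED10 was at 304, 309 and 313 CPM with DMSO and at 526, 617 and 626 CPM with TN, and rose by 0.93 ± 0.18 (adjusted p = 0.024). MCFD2 was at 71.4, 91.7 and 83.0 CPM and at 135, 184 and 194 CPM, and rose by 1.06 ± 0.22 (adjusted p = 0.034). Its partner LMAN1 did not pass in that fit, and did with GC offsets (adjusted p = 0.013). Of 20 tethers and SNAREs, STX5, which fuses ER vesicles with the Golgi, passed for TN at 1.30 ± 0.30 (adjusted p = 0.046) and 0 passed for OA. In the lists of translocation and membrane insertion (29 tested) and of COPI and the ARF1 cycle (10 tested), 0 passed for either stressor, with medians of 0.17 and 0.26 for OA and 0.14 and 0.20 for TN, and 4 and 2 genes had an unadjusted p under 0.05 for OA (23.3% of all genes), and 4 and 1 for TN (24.3%). With the replicate block, 30 of the 94 genes were called for TN (26 higher and 4 lower, beside 11.8 and 15.3% of all genes): 5 of translocation and membrane insertion, 11 of COPII export, 2 of COPI and the ARF1 cycle, 6 tethers and SNAREs, and all 6 tested transcription factors.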

How the data were processed

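HCT116 cells were treated for 24 h with OA, TN or DMSO, with 3 biological replicates per group. Reads were mapped by the authors with STAR (hg38), and the gene counts that STAR wrote for a Gencode annotation were deposited raw, without normalization. The labels name a total RNA kit, the study's methods speak of mRNA-seq, and the strand setting is not given in the sources used here. Deposited tables of the authors' own fold changes, p-values and DESeq2 statistics were not used. The members and lists were chosen with earlier results of these data known.

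Each stressor was compared with its own DMSO libraries by a two-sided quasi-likelihood test (edgeR 4.0.16, R 4.3.3), with TMM scaling, filterByExpr, no replicate term, and Benjamini-Hochberg adjustment over all genes tested. A gene was called at an adjusted p under 0.05. The SE was taken as the size of the log2 fold change over the root of its F statistic, and levels are CPM on TMM library sizes. Values per library are given for the called genes and at least the 2 genes of lowest p of each subgroup, and for related genes. Totals were 9884124 to 24983573 counts, and 3 replicates limit the precision. The test scripts were tested on simulated data. Alternatives were DESeq2 1.42.0, other scalings and filters, a replicate block, GC offsets (loess of span 0.3 on genes with a mean count of 20 or more), a joint fit, and leaving out each library. RN7SL1 and its relatives were left out in another. Coordinates and lengths come from a later Gencode release of hg38 than the authors used, and promoters from RefSeq.

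Same-numbered TN and DMSO libraries deviated together from their group means (correlations of 0.64, 0.41 and 0.43 across genes), so the TN numbers were taken to pair the samples, a pairing that rests on the data and not on the labels. The same pairs also shared the sign of their trend with GC content across genes (r = 0.49, −0.34 and −0.48 with DMSO, and 0.68, −0.57 and −0.62 with TN), and its part in the pairing was not tested. TN replicate 2 correlated slightly more with DMSO replicate 3 (0.44), and TN replicate 3 correlated with DMSO replicate 2 at 0.38. Figures were drawn with matplotlib 3.10.9.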

Additional observations from a re-analysis of the deposited data

How the results depend on the processing

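The median log2 fold change of the 45 genes was above 0 in all alternatives tried, and library totals in place of TMM lowered it to 0.142 (OA) and 0.325 (TN), as they lowered that of all genes to −0.225 and −0.182. The number of the 45 genes called for OA was 5 with DESeq2 in place of edgeR (beside 10.6% of all genes), 8 with no filter on low counts (5.52%), 6 in 1 fit of all 12 libraries (10.9%), 7 with GC offsets (16.1%), 14 with the replicate block (12 higher, with SRP9 and SAR1B lower, 26.7%), and 20 with the replicate block and GC offsets together (19 higher, with SRP9 lower, 25.7%). For TN it was 10 with DESeq2 (11.3%), 10 with no filter (5.85%), 21 with GC offsets (21.8%), 23 with the replicate block (27.1%), and 32 with the replicate block and GC offsets (37.2%). Over all genes, the block called 3914 in place of 658 for OA and 3915 in place of 1009 for TN, and the cause was not tested. For OA, each treated library correlated best with the same-numbered DMSO library (0.625, 0.539 and 0.091). The last of these values was low, and DMSO replicate 3 correlated best with OA replicate 1 (0.153). As for TN, a pairing of the OA libraries would rest on the data and not on the labels. When 1 library was left out, 0 to 5 of the 45 genes were called for OA and 0 to 17 for TN, while 3 to 1179 (OA) and 151 to 2361 (TN) were called over all genes. Each such fit has fewer samples. The OA minus TN contrast called 0 of the 45 genes in all alternatives run, while over all genes it called 25 with no filter, 1 with GC offsets, 6 with the block and GC offsets, 4 without OA replicate 2, and 0 in the others. Of the subgroup medians, 21 moved by more than the spread between replicates under an alternative and 99 did not, and 15 and 57 when 1 library was left out.

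The log2 fold changes of some genes changed sign, and not all of them were near 0, that of SEC62 for OA having been −0.6. With library totals these were SRP19 (−0.058), SEC24A (−0.04), SEC24C (−0.098) and KDELR2 (−0.131) for OA, and SRP72 (−0.05), SEC62 (−0.061) and ARCN1 (−0.039) for TN. With GC offsets they were SRP14 (0.037), SRP72 (0.175), SEC62 (0.066), SPCS1 (0.285), SEC23A (0.141) and SEC24C (−0.011) for OA, and SRP54 (0.067), SPCS1 (0.144), SEC24A (0.042) and SEC24B (0.086) for TN. With the replicate block and GC offsets they were SRP72 (0.195), SEC62 (0.108), SPCS1 (0.165), SEC23A (0.12) and SEC24C (−0.017) for OA, and SRP54 (0.064), SPCS1 (0.123), SEC24A (0.021) and SEC24B (0.083) for TN. With the replicate block alone it was SEC62 for TN (−0.173).

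Leaving out 1 library gave ranges across 0 for OA in SRP19 (−0.377 to 0.447), SRP68 (−0.076 to 0.515), SRP72 (−0.603 to 0.182), SEC62 (−0.941 to 0.208), SSR3 (−0.057 to 0.429), SPCS3 (−1.468 to 0.117), SEC11A (−0.081 to 0.072), SEC13 (−0.171 to 0.775), SEC23A (−0.881 to 0.078), SEC24A (−0.002 to 0.335), SEC24C (−0.092 to 0.288), COPB1 (−0.069 to 0.421), COPZ1 (−0.005 to 0.633), KDELR2 (−0.031 to 0.157) and LMAN1 (−0.409 to 0.826). For TN they were SRP54 (−0.308 to 0.315), SRP68 (−0.217 to 0.021), SRP72 (−0.087 to 0.325), SEC62 (−0.508 to 0.541), SPCS1 (−0.168 to 0.003), SEC16A (−0.427 to 0.115), SEC23A (−0.641 to 0.086), SEC24B (−0.204 to 0.046) and ARCN1 (−0.012 to 0.222). With GC offsets, LMAN1 was called for OA, and with the replicate block and GC offsets LMAN1 and SSR3 were called for OA and SRP72 for TN, and none of the others listed here was called for that stressor in any alternative run. Of the values of single genes under the other alternatives, 741 kept their side of the threshold and their sign, 131 passed where they had not, and 1 no longer passed (SSR4 for TN in 1 fit of all 12 libraries).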
